A study of Mus musculus with 12 samples.

Results

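The genes described here are 34 genes of glycolysis and of the fates of its product, pyruvate, taken as a fixed list of symbols from the 50600 genes of the deposited count table. The list was set by function and holds 9 genes of the steps from glucose to triose phosphate, 6 of the steps from there to pyruvate, 6 of lactate formation and of glucose and lactate transport, 7 regulators, 3 subunits of the pyruvate dehydrogenase complex and 3 glycogen enzymes. Earlier results of these data were known when the list was chosen. All 34 had a row in the table, and each had more than 3 counts in at least 1 library.

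Glycolysis splits glucose into pyruvate and yields ATP without oxygen. Pyruvate is then either reduced to lactate, which can leave the cell through monocarboxylate transporters, or oxidized in mitochondria through the pyruvate dehydrogenase complex. In the brain, astrocytes are known for storing glycogen and releasing lactate, and adult neural stem cells are commonly described as glycolytic, with oxidative metabolism gaining weight as they differentiate.

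The libraries came from the dentate gyrus, the part of the hippocampus in which new neurons are made in adult mice. Nestin-GFP mice of 6 to 9 weeks carried a green fluorescent protein driven by the Nestin promoter, and the labels name no treatment. Live cells without the endothelial, leukocyte and oligodendroglial antigens CD31, CD45, O1 and O4 were sorted as stem cells when they carried both GFP and the surface glutamate transporter GLAST, as progenitors when they carried GFP alone, and as astrocytes when they carried GLAST alone. Each cell type had 4 libraries of 50 sorted cells, made by direct cDNA preamplification, which the study calls limiting-cell RNA-seq (lcRNA-seq) and describes as biological replicates. The columns give numbers to the stem cell libraries (1 to 4) but not to the others, which are called a to d here. The study writes of a single mouse brain as enough for a biological replicate, but the labels do not tie libraries to animals or say whether the cell types came from the same mice.

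Total counts were 5357232 to 6253680 in astrocytes, 9041498 to 12535028 in progenitors and 5031166 to 10435711 in stem cells. Genes with at least 10 counts numbered 9430 to 11655 in the astrocyte libraries, 13368 to 14175 in the stem cell libraries and 16389 to 17015 in the progenitor libraries. All 10 astrocyte markers examined, among them Slc1a2, Gja1 and Aqp4, were above 0 in all 12 libraries. Nes, the gene behind the reporter, had no count in the astrocyte libraries and at most 0.521 CPM in stem cells, against 0.0835 to 20 CPM in progenitors, and Slc1a3, the gene of the gated GLAST, was at 2235 to 3403 CPM in progenitors, below the 3797 to 6158 CPM of astrocytes and 6768 to 9249 CPM of stem cells but far from absent. CPM, counts scaled to a common library size, used TMM factors, which lay between 0.795 and 0.914 in astrocytes, 1.16 and 1.20 in progenitors and 0.931 and 1.07 in stem cells. On total counts alone, the median log2 fold change of all genes moved by -0.46 for astrocytes over progenitors, by 0.33 for progenitors over stem cells and by -0.17 for astrocytes over stem cells. Without TMM factors, edgeR called 155 genes higher and 1030 lower in place of 363 and 915 for astrocytes over progenitors, and 1158 and 299 in place of 763 and 564 for progenitors over stem cells.

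Together the 34 genes took 1.22%, 1.04%, 0.928% and 1.62% of all counts in the astrocyte libraries and 1.3%, 1.09%, 1.25% and 1.17% in the progenitor libraries. In the stem cell libraries they took 2.23%, 1.86%, 2.69% and 2.03%. Every stem cell library was above every other library, whereas astrocytes and progenitors overlapped, with 1.20% ± 0.305 and 1.20% ± 0.0956 (SD, n = 4 each) against 2.2% ± 0.356 (SD, n = 4) in stem cells. A share of counts does not depend on TMM factors. Gapdh enters these shares by its own row alone. Of the counts on Gapdh and its copies, 93.1% to 94.9% per library lay on the other rows, described at the end, and are not included. In sorted bulk samples such as these, fewer cells that express a gene and less RNA per cell cannot be told apart.

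**Figure D1:**
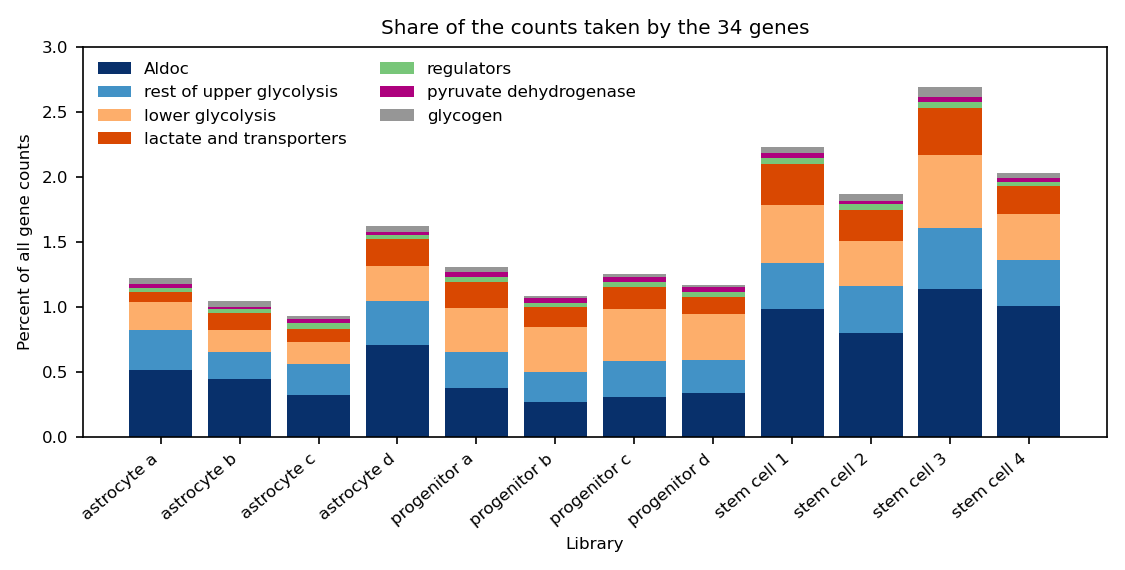
Stacked bars give the percent of all gene counts taken by the 34 genes in each of the 12 libraries, split by function, with Aldoc set apart. Gapdh is counted on its own row alone, without the rows of its copies. The 4 stem cell bars reach 1.86% to 2.69%, above the highest astrocyte bar at 1.62% and the highest progenitor bar at 1.3%.

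Aldoc, the brain aldolase that is widely used as an astrocyte marker, made up much of this share, and alone took 0.979%, 0.799%, 1.13% and 1.0% of the counts in stem cells. By raw counts it was the gene of rank 6 in each of the 4 stem cell libraries, of rank 8 to 16 in astrocytes and of rank 8 to 14 in progenitors. Without Aldoc, the remaining 33 genes took 1.02% to 1.56% in stem cells, 0.819% to 0.945% in progenitors and 0.602% to 0.918% in astrocytes, and the stem cell libraries again did not overlap with the others.

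Levels of different genes were compared as CPM per kb of exon. Aldoc, Ldhb, Eno1 and Aldoa stood at the top of the list, in this order, in all 3 cell types, as long as Gapdh is counted on its own row. With the rows of its copies added, described at the end, Gapdh stood between Ldhb and Eno1 by mean in each cell type. In stem cells Aldoc had 3077 ± 523 CPM per kb, Ldhb 1503 ± 424, Eno1 567 ± 175 and Aldoa 421 ± 73.9 (mean ± SD, n = 4), and of these neighbours only Eno1 and Aldoa overlapped between libraries. In progenitors the order was set by 826 ± 125, 617 ± 104, 341 ± 40.6 and 206 ± 20.2 CPM per kb, with overlap between Aldoc and Ldhb alone. In astrocytes the values were 1761 ± 528, 799 ± 331, 291 ± 57.6 and 286 ± 72.0 CPM per kb, and only Ldhb and Eno1 did not overlap. The order depends on the length used, since per kb of the longest transcript Eno1 stood above Ldhb in progenitors. Gapdh with its copies had 1677, 1319 and 2435 CPM per kb of its principal transcript in astrocytes, progenitors and stem cells. Ldhb had 963, 743 and 1817 CPM per kb on the same basis, below Gapdh in each cell type. In progenitors Aldoc, at 968 CPM per kb of its longest transcript, was below that Gapdh level too.

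**Figure D2:**
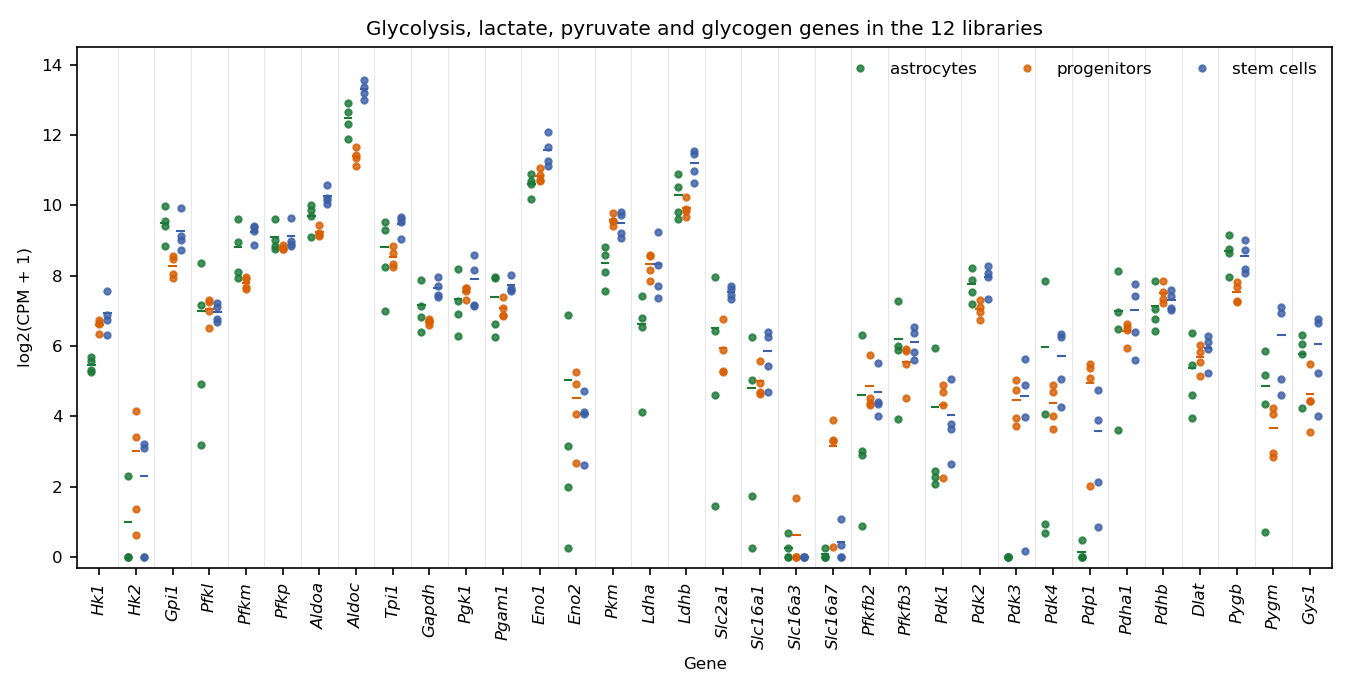
Each point is 1 library on a log2(CPM + 1) axis, short lines mark the mean of the 4 libraries of a cell type, and the genes run from hexokinases on the left to glycogen enzymes on the right. The progenitor points of Aldoc lie below all astrocyte points, which lie below all stem cell points, and the astrocyte points of Pdk3 lie at 0.

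At the low end, Slc16a3 and Slc16a7, the lactate transporters MCT4 and MCT2, and Hk2, the inducible hexokinase, were near the limit of detection, where 3 counts correspond to 0.206 to 0.639 CPM depending on the library. Slc16a3 had no count in stem cells and 0, 0, 0.198 and 0.613 CPM in astrocytes, and in progenitors all of its 26 counts came from library b. Slc16a7 was at 0.206, 13.9, 8.78 and 8.94 CPM in progenitors but at most 0.204 CPM in astrocytes and 1.11 CPM in stem cells. Neither transporter had at least 10 counts in 4 libraries of any comparison, so edgeR tested neither. DESeq2, run without this filter, called Slc16a7 lower in astrocytes than in progenitors (adjusted p = 0.000541) and higher in progenitors than in stem cells (adjusted p = 0.0188). Its single astrocyte count puts progenitors 151-fold higher, with a 95% counting interval of 27.0 to 5986, but the lowest progenitor library was nearly equal to the highest astrocyte library. Hk2 was at 0, 0, 3.95 and 0 CPM in astrocytes, 16.6, 1.59, 0.554 and 9.72 CPM in progenitors and 7.49, 0, 8.26 and 0 CPM in stem cells, and its groups overlapped in all 3 comparisons.

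Progenitors were compared with stem cells first, since these cells share the GFP reporter and differ in GLAST. Of the 32 members tested, 12 were lower in progenitors and none was higher. Over all 15427 genes tested, 3.66% were called lower and 4.95% higher at an edgeR adjusted p under 0.05, against 37.5% and 0% of the members. The members were chosen with earlier results of these data known, so this contrast is a description and not an independent test. At an unadjusted p under 0.05, 15 members were lower and again none was higher, beside 21.2% of all genes in either direction. DESeq2 called 13 members lower and 1, Slc16a7, higher. The 12 called members span the pathway: Gpi1, Pfkm, Aldoa, Aldoc and Tpi1 of upper glycolysis, Gapdh and Eno1 of lower glycolysis, Ldhb and Slc2a1 of lactate and glucose handling, the regulator Pdk2, and Pygb and Pygm of glycogen breakdown. All 12 reached 10 counts in every one of the 8 libraries, as did 29 members in all. The median log2 fold change of these 29 was -0.77, beside -0.10 for the 9773 genes with as many counts. By libraries that do not overlap, 13 members were lower in progenitors, namely the 12 called and Pgam1, and none was higher, beside 7.5% of all genes lower and 11.8% higher. On total counts without TMM factors 10 did not overlap, and the shares of all genes just given, which use TMM factors, are not the background for that count.

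The number of calls depended on single libraries. It was 5 without progenitor library b, 7 without c, 5 without d and 7 without stem cell library 3, and 8 to 12 without any other. Pfkm, Aldoa, Aldoc and Ldhb were called lower in all 8 fits with a library left out and in all 8 other fits, and Gapdh in the 8 fits with a library left out. With all 12 libraries in a single fit 4 members were called, and on total counts without TMM factors 8 were called.

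In the same comparison marker genes were counted, beside 3.66% of all genes called lower and 4.95% called higher by edgeR. Each CPM range given for a marker list is a sum over the whole list, called or not. Of 10 astrocyte markers 8 were lower in progenitors, at a summed level of 5806 to 8177 CPM against 18676 to 24302 CPM in stem cells. None of the 10 was at 0 in any library. Of 9 neuroblast and intermediate progenitor markers, 6 were tested and 4 were higher in progenitors, with a list sum of 1059 to 1816 CPM against 16.0 to 68.2 CPM. None of the 6 reached 10 counts in every library of the comparison. Of 6 markers of oligodendrocyte precursors, all tested, 5 were higher, with a list sum of 1817 to 3023 CPM against 60.7 to 144 CPM. Only 2 of the 6 reached 10 counts in every library. Of 6 mural cell markers, 5 were tested and 2 were higher, with a list sum of 299.7 to 2671 CPM against 52.8 to 98.5 CPM. Only 1 of the 5 reached 10 counts in every library. This list shares Cspg4 with the oligodendrocyte precursor list, so that gene enters the counts and sums of both. Of 9 genes often used for neural stem cells, 5 were lower, with a list sum of 832 to 1272 CPM against 1983 to 2525 CPM. Of 9 neuronal genes 1 was higher and 1 lower. No oligodendrocyte, microglial or erythroid marker was called by edgeR, which tested 4 of 6, 2 of 6 and 1 of 5, and DESeq2 called 1 microglial and 1 erythroid marker lower. The 5 endothelial and 4 ependymal markers did not pass the count filter and were not tested by edgeR. In sum the endothelial markers were at 0.343 to 4.71 CPM in progenitors and 0.751 to 97.0 CPM in stem cells. The ependymal markers were at 0 to 86.8 CPM in progenitors and 0 CPM in stem cells. The part of these cell types in the member results was not tested.

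**Figure D3:**
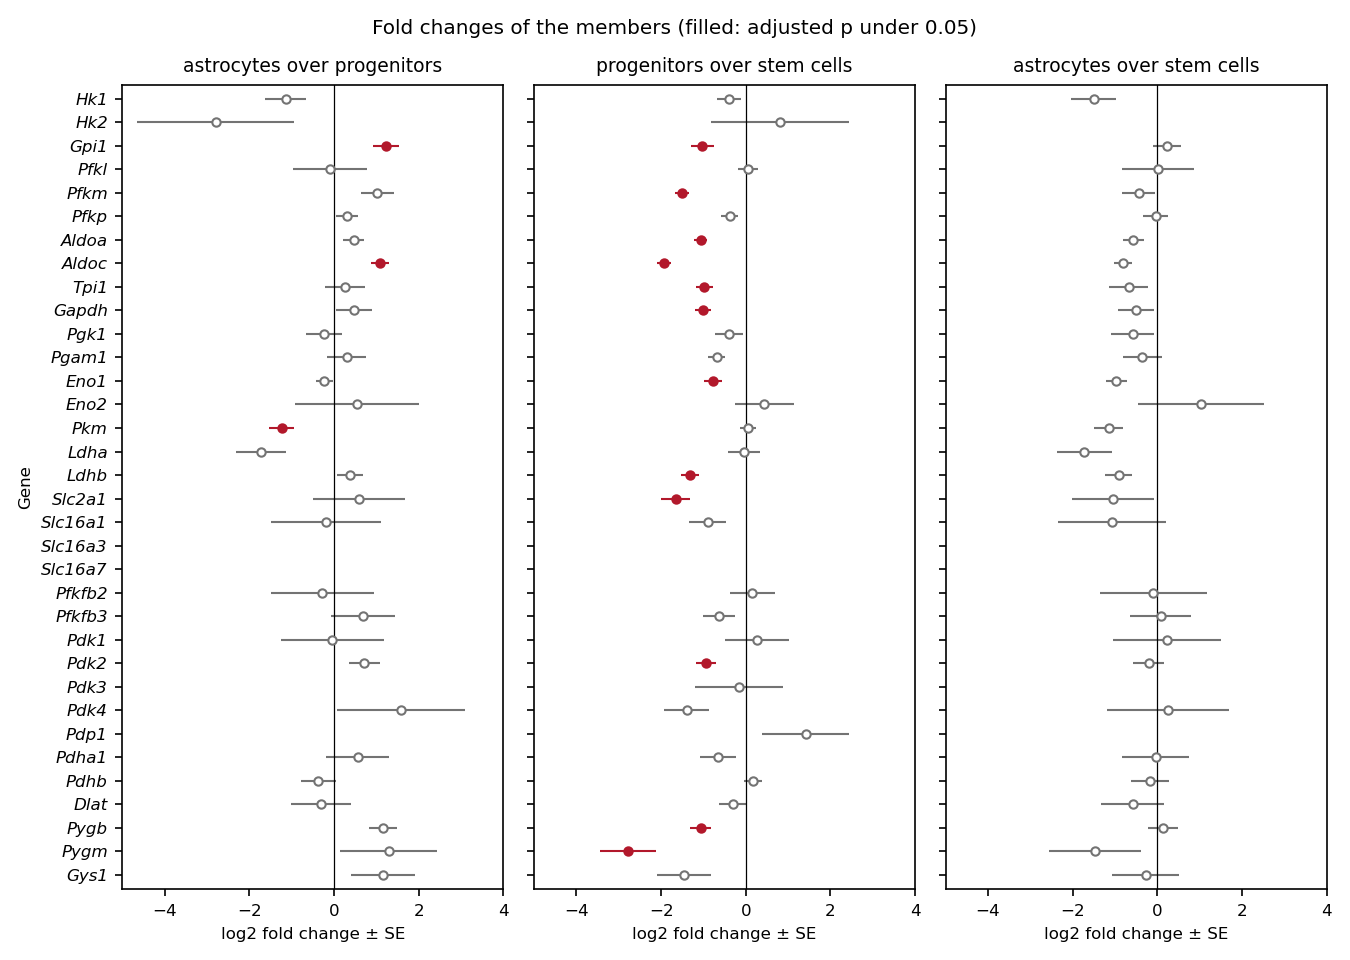
Points give the log2 fold change of each member with its standard error in the 3 comparisons, and filled points passed an adjusted p of 0.05 over all genes tested. Filled points lie left of 0 for 12 genes in progenitors over stem cells and none is filled in astrocytes over stem cells, while Pdk3 and Pdp1 in astrocytes over progenitors lie beyond the left edge and genes not tested have no point.

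In upper glycolysis, Aldoc (chr11:78322968-78327781, GRCm38) had the lowest adjusted p of the list. It was at 3202, 2226, 2576 and 2779 CPM in progenitors and 10484, 8138, 12161 and 9376 CPM in stem cells. The lowest stem cell library was more than 2 times as high as any progenitor library, and the log2 fold change was -1.93 ± 0.17 (SE, edgeR adjusted p = 0.000267). Aldoa, the muscle-type aldolase found in most tissues, was at 686, 555, 570.3 and 592 CPM in progenitors and 1139.7, 1054, 1540.2 and 1173 CPM in stem cells. Again the groups did not overlap, with a log2 fold change of -1.07 ± 0.16 (SE, edgeR adjusted p = 0.0038).

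Pfkm encodes a subunit of phosphofructokinase, the committed step of glycolysis, and was at 205, 246, 236 and 195 CPM in progenitors and 665, 619, 684 and 466 CPM in stem cells. Progenitor libraries lay in a narrow band below all stem cell libraries, and the log2 fold change was -1.50 ± 0.17 (SE, edgeR adjusted p = 0.00103). The genes of the other subunits were not called. Pfkp was at 428 to 469.8 CPM in progenitors and 461 to 796 CPM in stem cells, a log2 fold change of -0.38 ± 0.19 (SE, edgeR adjusted p = 0.306), and Pfkl was at 90 to 156 and 101 to 147 CPM, a log2 fold change of 0.05 ± 0.24 (SE, edgeR adjusted p = 0.941).

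Gpi1, which turns glucose 6-phosphate into fructose 6-phosphate, was at 265, 241, 378 and 356 CPM in progenitors and 562, 517, 967 and 424 CPM in stem cells. The gap between the groups was small, and the log2 fold change of -1.03 ± 0.27 (SE, edgeR adjusted p = 0.0435) lost its call in 6 of the 8 fits with a library left out. Tpi1, triose phosphate isomerase, was at 462, 319.6, 402 and 301 CPM in progenitors and 739, 773, 811 and 526 CPM in stem cells. Its groups did not overlap, and its log2 fold change was -0.97 ± 0.20 (SE, edgeR adjusted p = 0.0133). Tpi1 was not called without progenitor library b or d, nor with all 12 libraries in a single fit. Hk1, the main hexokinase of the brain, overlapped between 79.5 to 106 CPM in progenitors and 78 to 188 CPM in stem cells.

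In lower glycolysis, Gapdh was at 103, 108, 95.6 and 102 CPM in progenitors and 208, 175, 248 and 167 CPM in stem cells. The progenitor libraries were close to each other and below all stem cell libraries, and the log2 fold change was -1.01 ± 0.19 (SE, edgeR adjusted p = 0.0091). Eno1, the enolase of most tissues, was at 1841, 1667, 2138 and 1684 CPM in progenitors and 3223, 2438, 4308 and 2229 CPM in stem cells. The highest progenitor library came close to the lowest stem cell library, and the log2 fold change of -0.77 ± 0.21 (SE, edgeR adjusted p = 0.048) lost its call in 6 of the 8 fits with a library left out.

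The other 4 genes of lower glycolysis were not called by edgeR. Pgam1, a phosphoglycerate mutase, was at 117, 115, 168 and 135 CPM in progenitors and 189.7, 259, 199 and 193 CPM in stem cells. Its groups did not overlap, but its log2 fold change of -0.69 ± 0.20 (SE, edgeR adjusted p = 0.0634) missed the threshold in edgeR, while DESeq2 called it (adjusted p = 0.0224). Pgk1, phosphoglycerate kinase, spanned 158 to 199.8 CPM in progenitors and 141 to 383 CPM in stem cells. Pkm, pyruvate kinase, was at 675 to 872 and 532 to 898 CPM, with a log2 fold change of 0.05 ± 0.19 (SE, edgeR adjusted p = 0.923). The neuronal enolase Eno2 was at 5.43 to 37.0 CPM in progenitors and 5.08 to 25.5 CPM in stem cells.

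Among genes of lactate and transport, Ldhb, the lactate dehydrogenase subunit of oxidative tissues, was at 1198, 906, 956 and 815 CPM in progenitors and 2814, 2009, 3011 and 1601 CPM in stem cells. No progenitor library reached a stem cell library, and the log2 fold change was -1.32 ± 0.22 (SE, edgeR adjusted p = 0.00561). Ldha, the subunit of glycolytic tissues, overlapped between 229 to 385 and 164 to 599 CPM, with a log2 fold change of -0.05 ± 0.38 (SE, edgeR adjusted p = 0.966). Slc2a1, the glucose transporter GLUT1, was at 107, 57.6, 37.5 and 37.8 CPM in progenitors and 159.6, 208, 196 and 173 CPM in stem cells. Its groups did not overlap, and its log2 fold change was -1.65 ± 0.35 (SE, edgeR adjusted p = 0.0154). Slc2a1 was not called without progenitor library b or d, nor with all 12 libraries in a single fit. Slc16a1, the lactate transporter MCT1, was at 23.6 to 46.6 CPM in progenitors and 25.0 to 83.5 CPM in stem cells, with a log2 fold change of -0.90 ± 0.44 (SE, edgeR adjusted p = 0.288).

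Of the 7 regulators, Pdk2 alone was called. Pdk2 is a kinase that inactivates pyruvate dehydrogenase, and was at 138, 124, 158 and 107 CPM in progenitors and 308, 268, 250.04 and 160.5 CPM in stem cells. The highest progenitor library and the lowest stem cell library were nearly equal, and the log2 fold change of -0.94 ± 0.23 (SE, edgeR adjusted p = 0.0314) kept its call in 1 of the 8 fits with a library left out. Pdk4, another of these kinases, was at 11.4 to 28.6 and 18.4 to 79.3 CPM, a log2 fold change of -1.40 ± 0.54 (SE, edgeR adjusted p = 0.159). Pdk1, Pdk3, the phosphatase Pdp1, and Pfkfb2 and Pfkfb3, which set the level of the phosphofructokinase activator fructose 2,6-bisphosphate, had adjusted p-values from 0.391 to 0.958 in edgeR. Of these, Pdk1 was at 3.77 to 28.4 CPM in progenitors and 5.25 to 32.3 CPM in stem cells, Pfkfb2 at 19.1 to 52.4 and 15.1 to 44.4 CPM, and Pfkfb3 at 21.8 to 59.7 and 47.2 to 91.2 CPM. The 3 subunits of the pyruvate dehydrogenase complex overlapped between the groups. Pdha1 was at 60.2 to 98.5 CPM in progenitors and 47.7 to 215 CPM in stem cells, Pdhb at 149 to 231 and 129 to 192 CPM, and Dlat at 34.6 to 64.7 and 36.4 to 77.0 CPM.

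The 3 glycogen members had negative log2 fold changes in progenitors over stem cells, and 2 were called. Pygb, the brain glycogen phosphorylase, was at 224, 151, 203 and 155 CPM in progenitors and 423, 268, 515 and 290.5 CPM in stem cells. Its groups did not overlap, with a log2 fold change of -1.07 ± 0.25 (SE, edgeR adjusted p = 0.0262). Pygm, the muscle glycogen phosphorylase that astrocytes also express, was at 17.8, 6.18, 15.8 and 6.71 CPM in progenitors and 23.2, 121, 136 and 32.3 CPM in stem cells. It had the largest fold change of the 12, at -2.78 ± 0.67 (SE, edgeR adjusted p = 0.029), with stem cell libraries 2 and 3 far above 1 and 4, and it was not called without either of these, nor without progenitor library b, c or d. Pygb lost its call without progenitor b, c or d or stem cell 1 or 3. Gys1, glycogen synthase, was at 43.4, 20.8, 10.8 and 20.8 CPM in progenitors and 36.5, 109, 99.6 and 15.0 CPM in stem cells, where libraries 2 and 3 were again high, and its log2 fold change was -1.46 ± 0.64 (SE, edgeR adjusted p = 0.22).

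Of 21 further glycogen genes, edgeR tested 17. Of these, 14 had log2 fold changes below 0 and 3 above, beside 48.2% of all genes below 0. Among them edgeR called 6 lower in progenitors and none higher, or 35.3% and 0%, beside 3.66% and 4.95% of all genes. DESeq2 called 6 lower and 1 higher. The 6 edgeR calls were Phka1, Phkb and Phkg1, subunits of the phosphorylase kinase that activates glycogen phosphorylase, Pgm1 and Ugp2, which lead from glucose 6-phosphate to the glycogen precursor UDP-glucose, and Ppp1r3c, which brings protein phosphatase 1 to glycogen. Ugp2 was at 131, 75.5, 90 and 80.8 CPM in progenitors and 275, 332, 329.7 and 220.1 CPM in stem cells. Its groups lay far apart, with a log2 fold change of -1.65 ± 0.24 (SE, edgeR adjusted p = 0.00288). Phkb was at 41.8, 54.6, 42.4 and 46.4 CPM in progenitors and 129, 149, 129 and 126 CPM in stem cells, with a log2 fold change of -1.56 ± 0.20 (SE, edgeR adjusted p = 0.00191). Pgm1, at 76.5 to 149 and 208 to 412 CPM, had -1.55 ± 0.28 (SE, edgeR adjusted p = 0.00814), and Ppp1r3c, at 47.3 to 120.2 and 132 to 318 CPM, had -1.60 ± 0.35 (SE, edgeR adjusted p = 0.0189). Phka1 and Phkg1 had -1.18 ± 0.23 and -1.59 ± 0.33 (SE, edgeR adjusted p = 0.0112 and 0.0156). Gaa, the lysosomal glucosidase, had the highest progenitor level of the uncalled glycogen genes and overlapped between 112 to 177 CPM in progenitors and 138 to 213 CPM in stem cells.

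**Figure D4:**
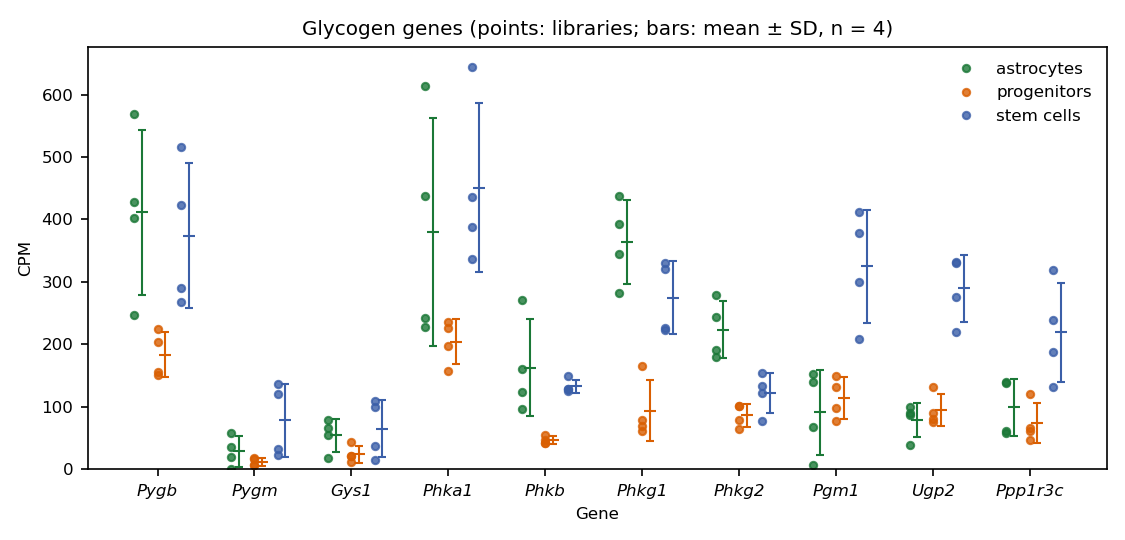
Points give the CPM of 10 glycogen genes in each library and bars the mean ± SD (n = 4) of each cell type. For Pygb, Phkb and Phkg1 the 4 progenitor points lie below all points of the other cell types, and for Ugp2 the stem cell points, from 220.1 to 332 CPM, lie above the rest.

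Among 18 other glycolysis genes 8 were tested and G6pc3, a ubiquitous glucose 6-phosphatase, was called lower in progenitors at -1.27 ± 0.33 (SE, edgeR adjusted p = 0.044). The highest of the rest was Bpgm, which makes 2,3-bisphosphoglycerate, at 80.7 to 89.3 CPM in progenitors and 42.5 to 64.0 CPM in stem cells. Its groups did not overlap, and its log2 fold change was 0.59 ± 0.23 (SE, edgeR adjusted p = 0.173). Of 20 other transporters and pyruvate genes, 16 were tested. Mpc1, a subunit of the mitochondrial pyruvate carrier, was lower in progenitors, at 73.0 to 118 against 153 to 196 CPM and -0.91 ± 0.21 (SE, edgeR adjusted p = 0.0244). Its partner Mpc2, at 72.3 to 114 against 125 to 165 CPM, had -0.65 ± 0.22 (SE, edgeR adjusted p = 0.101). Bsg, the basigin chaperone of lactate transporters and the most abundant gene of this list, overlapped between 363 to 538 and 505 to 665 CPM.

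Slc2a3, the neuronal glucose transporter GLUT3, moved the other way. It was at 18.3, 22.6, 18.2 and 11.2 CPM in progenitors, 0, 1.17, 0 and 0 CPM in stem cells and 0, 0.183, 0 and 0 CPM in astrocytes. It was called higher in progenitors than in stem cells (edgeR adjusted p = 0.0375) and lower in astrocytes than in progenitors (edgeR adjusted p = 0.0159). In both comparisons it passed the count filter through the progenitor libraries alone. The single astrocyte count makes the progenitor level 355-fold higher with a 95% counting interval of 63.6 to 14050 (exact binomial), which covers counting error only. None of the 9 genes of the pentose phosphate pathway, all tested, was called in progenitors over stem cells with edgeR. Tkt, a transketolase, was nearest at -0.83 ± 0.26 (SE, edgeR adjusted p = 0.0888) and was the only 1 of the 9 at an unadjusted p under 0.05.

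For 32 of the 34 members RefSeq (GRCm38.p6) lists at least 1 promoter, 48 windows in all, and the 250 bases before the start were searched on both strands. The letters ACGTG and GCGTG are the core of the element bound by hypoxia-inducible factors, and CACGTG, which holds ACGTG on both strands, is the E-box bound by MYC and related factors. ACGTG was found before 17 of the 32 members, against 18.5% of 27025 genes, GCGTG before 21, against 30.9%, and CACGTG before 6, against 6.86%. Of the 12 members called lower in progenitors, 6 held ACGTG, 8 held GCGTG and 2, Pfkm and Pdk2, held CACGTG. The median GC content of the windows was 60.4% for members and 52.4% for all 32851 windows, and such matches are a description of letters and not of bound sites. The windows of Pfkm and Pdk2 are shown because they hold the E-box letters, and that of Aldoc because the gene had the lowest adjusted p and its window has no ACGTG. Capitals mark CACGTG, and the Aldoc sequence stops where the annotated gene begins.
Aldoc, chr11:78322823-78322967, plus strand: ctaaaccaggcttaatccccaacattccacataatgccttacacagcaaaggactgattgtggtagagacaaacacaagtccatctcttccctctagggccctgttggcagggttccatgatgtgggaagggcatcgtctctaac
Pdk2, chr11:95041372-95041621, minus strand: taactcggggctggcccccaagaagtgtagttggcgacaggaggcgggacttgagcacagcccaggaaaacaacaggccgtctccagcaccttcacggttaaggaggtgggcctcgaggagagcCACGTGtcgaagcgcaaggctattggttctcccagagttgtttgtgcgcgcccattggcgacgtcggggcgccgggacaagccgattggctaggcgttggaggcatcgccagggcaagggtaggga
Pfkm, chr15:98092339-98092588, plus strand: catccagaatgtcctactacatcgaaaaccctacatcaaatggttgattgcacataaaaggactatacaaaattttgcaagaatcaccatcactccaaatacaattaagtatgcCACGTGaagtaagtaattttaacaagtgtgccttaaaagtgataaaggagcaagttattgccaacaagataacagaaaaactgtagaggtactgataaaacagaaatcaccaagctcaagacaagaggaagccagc
The E-box begins 126 bases before the start of Pdk2 and 136 bases before the start of Pfkm, which has 4 listed starts. The 105 bases between the printed Aldoc sequence and the RefSeq start lie in an exon of the annotation and hold 1 GCGTG.

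Astrocytes were compared with progenitors next. Of 32 members tested, 2 were higher in astrocytes and 3 lower, beside 2.45% of 14806 genes called higher and 6.18% called lower by edgeR. The median log2 fold change of the members was 0.30, beside 0.03 for all genes, but on total counts it was -0.16, beside -0.43 for all genes. For the 23 members that reached 10 counts in all 8 libraries it was 0.31, beside 0.50 for the 5862 genes with as many counts. Of these 23, 1 was called lower, Pkm. Pdk3 and Pdp1, also called lower, passed the count filter through the progenitor libraries alone. Without TMM factors no member was called higher and 4 were called lower. The count fell to 3 without progenitor library b and to 2 without c or d. DESeq2 called 4, none higher.

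Aldoc and Gpi1 were the higher members. Aldoc was at 6455, 5057, 3747 and 7732 CPM in astrocytes, above each progenitor library, with a log2 fold change of 1.09 ± 0.22 (SE, edgeR adjusted p = 0.016). Gpi1 was at 744, 458, 675 and 1011 CPM in astrocytes, also without overlap, with a log2 fold change of 1.22 ± 0.30 (SE, edgeR adjusted p = 0.0321). On total counts both fold changes fell to 0.63 and 0.76 and were not called, and DESeq2 called neither. Aldoc also lost its call without progenitor library c, and Gpi1 without astrocyte c or d or any 1 progenitor library. Aldoc and Gpi1 were the members called lower in progenitors against both other cell types, in comparisons that share the progenitor libraries.

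Pkm was lower in astrocytes, at 387, 273, 187 and 453 CPM, than in progenitors, at 675, 746, 757 and 872 CPM. The astrocyte libraries lay below every progenitor library and every stem cell library, and the log2 fold change was -1.24 ± 0.30 (SE, edgeR adjusted p = 0.0276). Pkm was not called by DESeq2 (adjusted p = 0.0685), without astrocyte library b or without any 1 progenitor library. Hk1 had the same order, with 39.0, 50.4, 46.2 and 37.0 CPM in astrocytes and 106, 79.5, 97.6 and 99.0 CPM in progenitors. Its groups did not overlap, and its log2 fold change was -1.15 ± 0.48 (SE, edgeR adjusted p = 0.219), while DESeq2 called it (adjusted p = 0.0173). Ldha was at 170.4, 16.4, 92.6 and 111 CPM in astrocytes and 378, 287, 385 and 229 CPM in progenitors, also without overlap, at -1.72 ± 0.59 (SE, edgeR adjusted p = 0.119).

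Pdk3, a kinase of pyruvate dehydrogenase, had no count in any astrocyte library. It was at 12.2, 31.6, 26.0 and 14.4 CPM in progenitors and 28.5, 48.7, 0.125 and 14.7 CPM in stem cells. With 3 counts per astrocyte library as the limit of detection, counts pooled over libraries put progenitors at least 34.4-fold higher (edgeR adjusted p = 0.016). The call held in all fits in which Pdk3 was tested, but Pdk3 entered each of them through the progenitor libraries alone. It was not tested where at least 10 counts were required in every library. Pdp1, the phosphatase that reactivates the complex, was at 0, 0, 0.395 and 0 CPM in astrocytes, 33.0, 40.3, 3.05 and 43.6 CPM in progenitors and 0.821, 3.39, 25.6 and 13.7 CPM in stem cells. Its 2 astrocyte counts put progenitors 309-fold higher with a 95% counting interval of 85.3 to 2551 (edgeR adjusted p = 0.0173), and the call was lost without progenitor library d. With all 8 libraries thinned to the smallest total, both were called, and the part of the lower number of genes detected in astrocytes was not tested.

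Of the members tested by edgeR, 3 were higher in astrocytes without overlap (Gpi1, Aldoc and Pygb) and 5 lower (Hk1, Pkm, Ldha, Pdk3 and Pdp1), beside 5.84% of all genes higher and 15.2% lower. On total counts 0 were higher and 6 lower, and these shares, which use TMM factors, are not the background for those counts. Pygb was at 568, 402, 247 and 428 CPM in astrocytes, with a log2 fold change over progenitors of 1.16 ± 0.33 (SE, edgeR adjusted p = 0.0579). Of the further glycogen genes, the 3 called by edgeR were the phosphorylase kinase subunits Phkb, Phkg1 and Phkg2, all higher in astrocytes. They were 17.6% of the 17 tested, beside 2.45% of all genes called higher, and DESeq2 called 3 higher and 1 lower. Phkg1 was at 344, 393, 282 and 437 CPM in astrocytes and 165, 78.5, 61.2 and 69.7 CPM in progenitors, with 1.95 ± 0.41 (SE, edgeR adjusted p = 0.0164). Phkb had 1.8 ± 0.47 (SE, edgeR adjusted p = 0.0384) and Phkg2 1.38 ± 0.37 (SE, edgeR adjusted p = 0.0422). Slc16a6, a monocarboxylate transporter family member, was lower in astrocytes, with 2 counts against 412 in progenitors (edgeR adjusted p = 0.0228). It passed the count filter through the progenitor libraries alone. In the other glycolysis and pentose phosphate lists edgeR called no gene and DESeq2 called 2 glycolysis genes lower. Marker genes were counted here too, beside 2.45% of all genes called higher and 6.18% called lower by edgeR. Each CPM range given for a marker list is a sum over the whole list, called or not. In astrocytes 4 of 10 astrocyte markers were higher, at 13234 to 17307 CPM in sum against 5806 to 8177 CPM. So were 3 of 9 neuronal markers, with a list sum of 664 to 5528 against 309 to 443 CPM. Of the oligodendrocyte precursor markers 4 of 6 were lower, with a list sum of 43.1 to 320.1 against 1817 to 3023 CPM and Bmp4 at 0 in astrocytes. So were 4 of 9 neuroblast and intermediate progenitor markers, with Eomes at 0. In each of these lists 6 genes were tested and 1 reached 10 counts in every library. Of 6 mural markers, which share Cspg4 with the precursor list, 1 was lower, with a list sum of 33.2 to 198 against 299.7 to 2671 CPM. Of 6 oligodendrocyte markers 4 were tested and 1 was higher, with a list sum of 337 to 3205 against 249 to 417 CPM and Mag at 0. Their part was not tested.

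Astrocytes and stem cells share GLAST and differ in the reporter. No member of 29 tested was called by edgeR, which called 0.0468% of 12831 genes higher and 0% lower. At an unadjusted p under 0.05 there were 7 members, all lower in astrocytes, beside 9.55% of all genes in either direction. DESeq2 called 3 members (Hk1, Pdk3 and Pdp1) and the fit with all 12 libraries 2 (Eno1 and Pkm). Of the 29 members tested by edgeR, Hk1, Aldoa, Aldoc, Eno1 and Pkm did not overlap, 5 members that were all lower in astrocytes, beside 6.28% of all genes lower and 3.69% higher. Pdk3 and Pdp1, which edgeR did not test here, were below all stem cell libraries too. The median log2 fold change was -0.44 for the 23 members that reached 10 counts in all 8 libraries and 0.32 for the 5662 genes with as many counts. With edgeR no gene of the marker lists was called here, but no endothelial or ependymal marker was tested. With DESeq2 1 of 10 astrocyte and 3 of 9 neuronal markers were higher in astrocytes. The summed astrocyte markers were at 13234 to 17307 CPM in astrocytes and 18676 to 24302 CPM in stem cells, and the summed neuronal markers at 664 to 5528 and 269 to 510.2 CPM in stem cells.

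Hk1 was at 78, 106, 188 and 116 CPM in stem cells, all above the astrocyte libraries, with a log2 fold change of -1.50 ± 0.54 (SE, edgeR adjusted p = 0.333). For Aldoc the difference was -0.81 ± 0.21 (SE, edgeR adjusted p = 0.147), for Eno1 -0.97 ± 0.25 (SE, edgeR adjusted p = 0.128) and for Pkm -1.15 ± 0.34 (SE, edgeR adjusted p = 0.206). Eno1 was at 1667, 1150.0, 1546 and 1889 CPM in astrocytes and Aldoa at 1031, 545, 931 and 821 CPM, both below all stem cell libraries. Aldoc was the only member whose libraries did not overlap in any of the 3 comparisons, in the order progenitor, astrocyte, stem cell. Across all 12 libraries, Aldoa, Aldoc and Eno1 had their 4 highest values in stem cells, Gpi1, Aldoc and Pygb their 4 lowest in progenitors, and Hk1, Pkm, Pdk3 and Pdp1 their 4 lowest in astrocytes. Of the 15834 genes tested in any comparison 1.19%, 1.98% and 3.64% had these patterns.

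Several members varied widely among astrocyte libraries, and none of those named next was called in a comparison with astrocytes. Slc2a1 was at 1.7, 23.2, 85.3 and 248 CPM in astrocytes, Slc16a1 at 2.34, 0.183, 31.4 and 74.7 CPM and Pdk4 at 228, 0.913, 0.593 and 15.7 CPM. Library d was highest for both transporters and library a for Pdk4. Pfkl was at 326, 29.2, 8.1 and 142 CPM, Tpi1 at 732, 126, 305 and 629 CPM and Pdha1 at 279, 11.1, 123 and 89.2 CPM, with library a highest for all 3. Of the rest, Pfkfb3 was at 14.3, 57.7, 156 and 62.5 CPM, Pdk2 at 144, 184, 295 and 234 CPM, Pgk1 at 289, 154, 77.0 and 119.9 CPM and Dlat at 23.4, 42.6, 14.4 and 81.7 CPM. The median coefficient of variation of the 23 members that reached 10 counts in all 12 libraries was 46.4% in astrocytes, 18.4% in progenitors and 28.2% in stem cells. For all 5622 genes with as many counts it was 65.3%, 25.3% and 35.4%. Pfkp in progenitors had the least spread at 4.45%, and Pdk1 in astrocytes the most at 157%.

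Ratios of isoenzymes within a library do not depend on library scaling, and were taken as log2 of counts plus 1 per kb of exon. Of 24 comparisons (8 ratios, 3 pairs of cell types), 6 reached 0.0286, the smallest p that 4 against 4 libraries allow in a two-sided exact permutation test, and after adjustment over the 24 each had an exact p of 0.114. Ldhb exceeded Ldha in every library. The log2 ratio of Ldhb to Ldha was 3.26, 7.54, 4.34 and 5.17 in astrocytes, 2.74, 2.74, 2.39 and 2.91 in progenitors and 4.23, 4.34, 3.41 and 4.36 in stem cells. Progenitors were lowest and did not overlap with either of the others, and the difference from stem cells was -1.39 ± 0.25 (SE, exact p = 0.0286).

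The ratio of Aldoc to Aldoa was 2.06, 1.84, 2.01 and 2.07 in progenitors and 3.04, 2.78, 2.82 and 2.83 in stem cells, a difference of -0.88 ± 0.08 (SE, exact p = 0.0286). In astrocytes it was 2.48, 3.05, 1.84 and 3.07 and overlapped with both. Of the phosphofructokinase subunits, Pfkp to Pfkm was -0.81, -1.20, -1.15 and -0.84 in progenitors and -2.40, -2.43, -1.79 and -1.97 in stem cells, a difference of 1.15 ± 0.19 (SE, exact p = 0.0286), and Pfkl to Pfkm differed by 1.53 ± 0.32 (SE, exact p = 0.0286). The remaining comparison at 0.0286, of Slc16a3 to Slc16a1 in astrocytes over stem cells, had no Slc16a3 count in stem cells and only 4 in astrocytes, so its value is set by the added count. Ratios of Hk2 to Hk1, Eno2 to Eno1 and Slc16a7 to Slc16a1 overlapped between all cell types, with exact p from 0.0857 to 1.

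**Figure D5:**
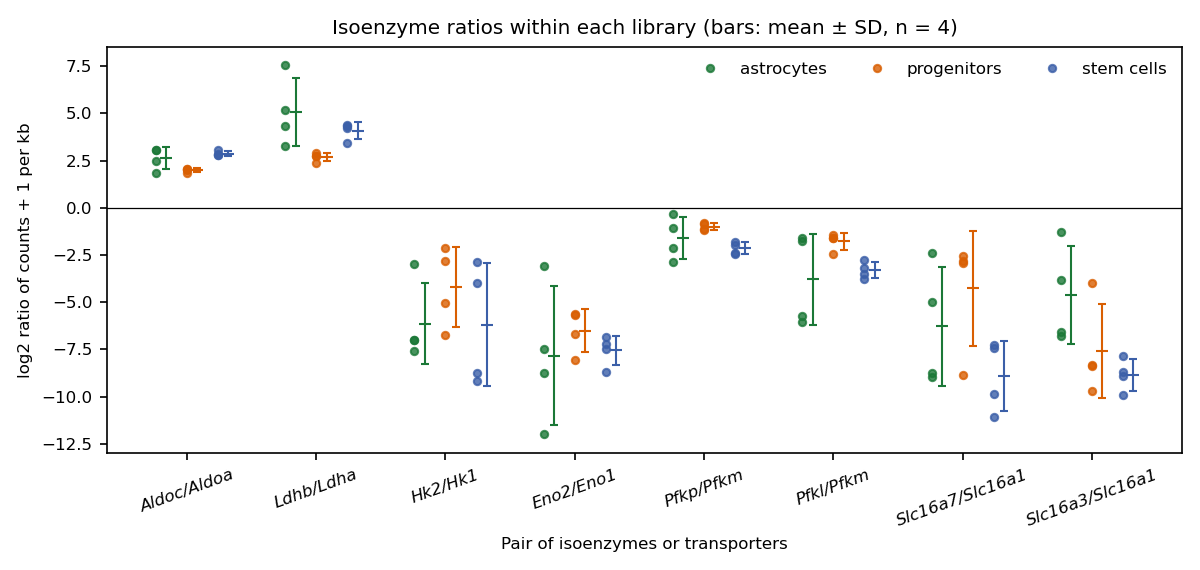
Each point is the log2 ratio of 2 related genes in 1 library, from counts plus 1 per kb of exon, with the mean ± SD (n = 4) of each cell type beside it. For Ldhb/Ldha, Aldoc/Aldoa, Pfkp/Pfkm and Pfkl/Pfkm the progenitor and stem cell points do not overlap. Ratios with Hk2, Eno2, Slc16a7 or Slc16a3 spread widely among the astrocyte libraries, and so do Pfkl/Pfkm (SD 2.42) and Ldhb/Ldha (SD 1.82).

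Some members share sequence with other loci, which bears on their counts. For Gapdh, 78% of the 100-base windows of its principal transcript occur in other annotated genes. Of the counts on Gapdh and the 85 rows of such genes, 93.1% to 94.9% per library lay on the other rows, and Gm7336 alone had 48047 counts over the 12 libraries against 14099 for Gapdh. With these rows added, Gapdh was at 2030.0, 1852, 1746 and 1862 CPM in progenitors and 3901, 3104, 4157 and 2667 CPM in stem cells. The groups still did not overlap and the log2 fold change was -0.92 ± 0.15 (SE, edgeR adjusted p = 0.00618). In astrocytes the sum was 2706, 2065, 1318 and 3434 CPM. At 576, 453 and 837 CPM per kb of exon in astrocytes, progenitors and stem cells, the summed level was many times the 34.5, 24.7 and 48.3 CPM per kb of Gapdh alone, so the level printed for Gapdh is not comparable with that of other members.

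For Eno1, 59% of windows are shared, with Eno1b and 3 other genes, and 7.09% to 10.4% of the counts lay on their rows. For Pgk1 and Pgam1, 67% and 39.7% of windows are shared and at most 6.02% and 8.39% of counts lay elsewhere, and for Pdhb up to 17.4%. Adding the rows changed the number of called members in none of the 3 comparisons. Counting ignored strand, so reads from stretches shared with a gene on the opposite strand could not be told apart by strand. Whether such reads were counted or left out is not given in the sources used here, so the direction of any effect is not known. The exons of Pdha1 overlap Map3k15 over 16.1% of their length, those of Gpi1 Gm26762 over 11.5% and those of Gys1 Ruvbl2 over 6.47%, and Pfkfb2, Pkm and Pfkm share 17.4%, 15.3% and 10.2% of their exons with Gm29427, Gm49759 and Gm26513 on their own strand. Aldoc, Ldhb, Ldha, Eno1, Pdk2, Pdk3, Pdp1, Pygb and Pygm have no overlapping annotated gene. Of the other pathway genes named above, Mpc1, Slc16a6, Phkg2 and Pgm1 overlap opposite-strand genes over 23.1%, 22.5%, 21.9% and 13.6% of their exons.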

How the data were processed

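The authors sorted 50 cells per library, preamplified cDNA with the SMARTer v4 kit and made Nextera XT libraries, with no molecular identifiers named. They trimmed reads, removed those from rRNA, mtDNA and PhiX, aligned the rest to GRCm38 with HISAT2 2.0.6 and counted them per GENCODE M14 gene with featureCounts, without strand. The table deposited by the authors holds these counts as they are. How reads with several alignments were counted is not given in the sources used here, and copies of 1 molecule were counted separately, so intervals cover counting error only. Depth was 5031166 to 12535028 counts per library. The study's filter on coverage (CLEAR) needs read positions and was not run.

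Cell types were compared in pairs with edgeR 4.0.16 in R 4.3.3 (TMM, quasi-likelihood test, at least 10 counts in at least 4 of 8 libraries, or at least 3 with a library left out, Benjamini-Hochberg threshold of 0.05 over all genes). DESeq2 1.42.0, other scalings and filters, thinned counts and left-out libraries were alternatives. CPM used TMM over 12 libraries, and ratios used exact permutation tests (Python 3.11.15, scipy 1.17.1). Symbols, exon lengths and shared 100-base windows came from GENCODE M21, and promoters from RefSeq on GRCm38.p6. A group at 0 was set to 3 counts per library. All 34 members are named, with other pathway genes that were called or had a high level. Members and lists were chosen with earlier results of these data known. Gene levels are not protein levels or fluxes. Amino acid sequences were not used here.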

Additional observations from a re-analysis of the deposited data

Results flagged for a closer look

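A gap between 1 library and the other 3 above Dixon's 95% critical value was found in 10 of 96 groups of 4 libraries. That value flags about 1 in 20 groups of normally distributed values. Low CPM need not be normal, so 1 in 20 is not a chance rate for these groups. For Hk2 in astrocytes and Slc16a3 in progenitors the other 3 libraries were at 0, so any count in 1 library gave a flag. Astrocytes held 5 of these groups, stem cells 3 and progenitors 2, and in all 10 the outlying library was the highest.

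In astrocytes, library b had 117 CPM of Eno2 against at most 7.88 CPM in the others, and 78 CPM of Pfkfb2 against at most 7.15 CPM. Library c had 60.6 CPM of Pdk1 against at most 4.49 CPM and 3.95 CPM of Hk2 against 0. Library a had 228 CPM of Pdk4 against at most 15.7 CPM. In stem cells, library 3 had 796 CPM of Pfkp against at most 506 CPM and 44.4 CPM of Pfkfb2 against at most 20.1 CPM, and library 2 had 259 CPM of Pgam1 against at most 199 CPM. In progenitors, library d had 52.4 CPM of Pfkfb2 against at most 21.7 CPM, and library b had 2.17 CPM of Slc16a3 against 0.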

How the results depend on the processing

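No paired analysis was possible because the columns of the astrocyte and progenitor libraries carry no replicate number. No log2 fold change of a member that was called or had an unadjusted p under 0.05 changed sign under any alternative run. On total counts, 5, 3 and 3 other members changed sign in the 3 comparisons, among them Aldoa, Tpi1 and Ldhb for astrocytes over progenitors.

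For astrocytes over progenitors, 5 members were called, 3 with no count filter and 2 with at least 10 counts in every library. Leaving out a library gave 2 to 5. For progenitors over stem cells, 12 were called, 4 with all 12 libraries in a single fit and 5 to 12 with a library left out. For astrocytes over stem cells, 0 were called, 2 with all 12 libraries in a single fit and 3 with DESeq2, and 0 to 0 with a library left out. The cause was not tested, apart from the filters, which change the genes tested. Over all genes, edgeR and DESeq2 called 1278 and 2968, 1327 and 3092, and 6 and 876 in the 3 comparisons. For astrocytes over progenitors edgeR called 529 with no count filter, 287 with 10 counts in every library, 719 without progenitor library c and 794 without d. For progenitors over stem cells it called 445 with all 12 libraries and 830 without progenitor library d. For astrocytes over stem cells it called 343 with all 12 libraries, 16 with no filter, 12 with 10 counts in every library, and 0 to 8 with a library left out. DESeq2-type size factors, thinned counts, and 2 alternatives chosen after seeing the data (total counts without TMM factors and rows of copies added) kept the number of called members within 1.5 times. The isoenzyme comparisons at the smallest p numbered 6 with a pseudocount of 0.1 and with thinned counts as well. With 3 counts at 0.206 to 0.639 CPM, lower levels could not be told from 0.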
